A study of Mus musculus with 39 samples.

Results

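The interaction of genotype and PCB-153 in mouse spleen was described over all 19 spleen libraries of a series that holds 39 libraries from liver and spleen. For each gene the effect of PCB-153 in wild type, on the log2(normalised read count + 1) scale, was subtracted from its effect in the labelled knockout; this scale understates changes of genes with low values. A positive interaction therefore means that the gene stood higher in exposed knockout spleen than the 3 remaining groups would give by addition, and a negative one that it stood lower. All genes with a mean normalised read count of 10 or more over the 19 libraries were members, which gave 19058 of the 54735 genes in the table.

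The mice were C57BL/6, 4 weeks old, and either wild type or knockout for SXR, the nuclear receptor encoded by Nr1i2 and also named PXR. They had received PCB-153 at about 54 µg/kg/day, or the DMSO vehicle, from the perinatal period until that age. Of the 4 groups, wild type with DMSO held 4 libraries (replicates 1, 3, 4 and 5), and wild type with PCB-153, knockout with DMSO and knockout with PCB-153 held 5 each. Values by library are given below in the order of replicate number. The labels name no tissue limit for the knockout and no litters, and nothing in them says that the libraries came from separate animals, so the p-values speak only of the spread among these libraries.

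SXR/PXR is a ligand-activated receptor that senses drugs, steroids and environmental chemicals and drives genes of drug metabolism, chiefly in liver and intestine. PCB-153 is a persistent polychlorinated biphenyl with a non-dioxin-like structure, so it is a poor ligand of the aryl hydrocarbon receptor. The spleen of a young mouse filters blood, holds B and T lymphocytes in the white pulp, and in the red pulp still makes red cells and granulocytes. An interaction asks whether the answer of this tissue to the chemical differs with the receptor's genotype.

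The genotype labels were checked first on Nr1i2 (chr16:38248323-38294824, GRCm38, protein coding). Nr1i2 read 0, 0, 2.27 and 0 in the wild-type DMSO libraries and 2.23, 0, 0, 0 and 0 in the wild-type PCB-153 libraries. Values in the labelled knockout were 42.9, 54.8, 61.7, 62.8 and 55.4 with DMSO and 43, 53.6, 57, 50.9 and 55.9 with PCB-153. The transcript was thus at or near 0 in the libraries labelled wild type and present in all 10 labelled knockout, the reverse of what the labels name, and the 2 genotypes did not overlap. Counts per gene do not show which part of Nr1i2 the reads cover, so they cannot settle the genotype of a library. The reason for the reversal was not tested. The group names below are those of the labels, and every direction drawn from genotype rests on these labels. The interaction of Nr1i2 itself was 0.00 (SE 0.53, 95% interval -1.11 to 1.11, adjusted p = 0.999).

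Library depth was 16.1 M to 29.52 M reads (median 19.64 M). Lymphoid, erythroid and macrophage markers of spleen were present in all groups, with group means of 6463 ± 336, 5913 ± 316, 6501 ± 758 and 4275 ± 1122 for Cd79a, 605 ± 56.6, 562 ± 54.7, 589 ± 80.9 and 494 ± 118 for Cd3e, 31732 ± 5549, 29887 ± 3089, 29287 ± 6392 and 41429 ± 8478 for Alas2 and 946 ± 78.9, 932 ± 118, 1135 ± 85.4 and 1177 ± 223 for Spic (SD, in the order wild type DMSO, wild type PCB-153, labelled knockout DMSO, labelled knockout PCB-153). Some libraries of the labelled knockout with PCB-153 stood apart. The summed level of 23 pancreatic acinar genes was 27154 in replicate 1, 222569 in replicate 4 and 1628 in replicate 5, against 582 to 842 in the other 16 libraries. None of the 23 genes was at 0 in replicates 1 and 4 and 2 were at 0 in replicate 5, against 7 to 14 in the other libraries. On the first principal component, which carried 25.9% of the variance, replicates 4 and 1 lay at 67.5 and 56.3 and the other 17 libraries between -23.1 and 11.9. Results are therefore given with all 19 libraries and without replicates 1 and 4 of the labelled knockout with PCB-153, called the 17-library fit below. Another fit also left out replicate 5 and is called the 16-library fit. Both were chosen after the data were seen.

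No gene had an interaction with an adjusted p under 0.05 in limma over the 19 libraries: 0 of 19058 genes were called (0.0%), and the lowest adjusted p was 0.417. At an unadjusted p under 0.05 there were 1877 genes (9.85%), 730 with a positive interaction (3.83%) and 1147 with a negative one (6.02%). Single libraries moved these counts by over 1.5 times: the positive count was 472, 1310 and 414 without wild-type DMSO replicates 3, 4 and 5 in turn and 1513 without labelled knockout PCB-153 replicate 2, and the negative count was 754 without wild-type DMSO replicate 5. The edgeR quasi-likelihood test on reads recovered from the normalised values also called 0 genes, and 1804 had an unadjusted p under 0.05. DESeq2 on the same reads called 32 of 16385 genes (0.195%), which are described after the gene groups. The median standard error of an interaction was 0.18 on the log2 scale. The median half-width of its 95% interval was 0.37, or 1.29-fold, before adjustment for the number of genes. For 15885 genes (83.4%) the whole interval lay within a log2 interaction of -1 to 1. A log2 interaction above 1 in size was measured for 267 genes, of which 75 had a mean of 50 or more. The 10 largest were Dct and Tyrp1 of pigment cells and the pancreatic genes Try4, Ctrb1, Try5, Cpb1, Amy2a2, Amy2a3, Amy2a4 and Amy2a5, as the plot of interaction against mean level shows.

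**Figure D1:**
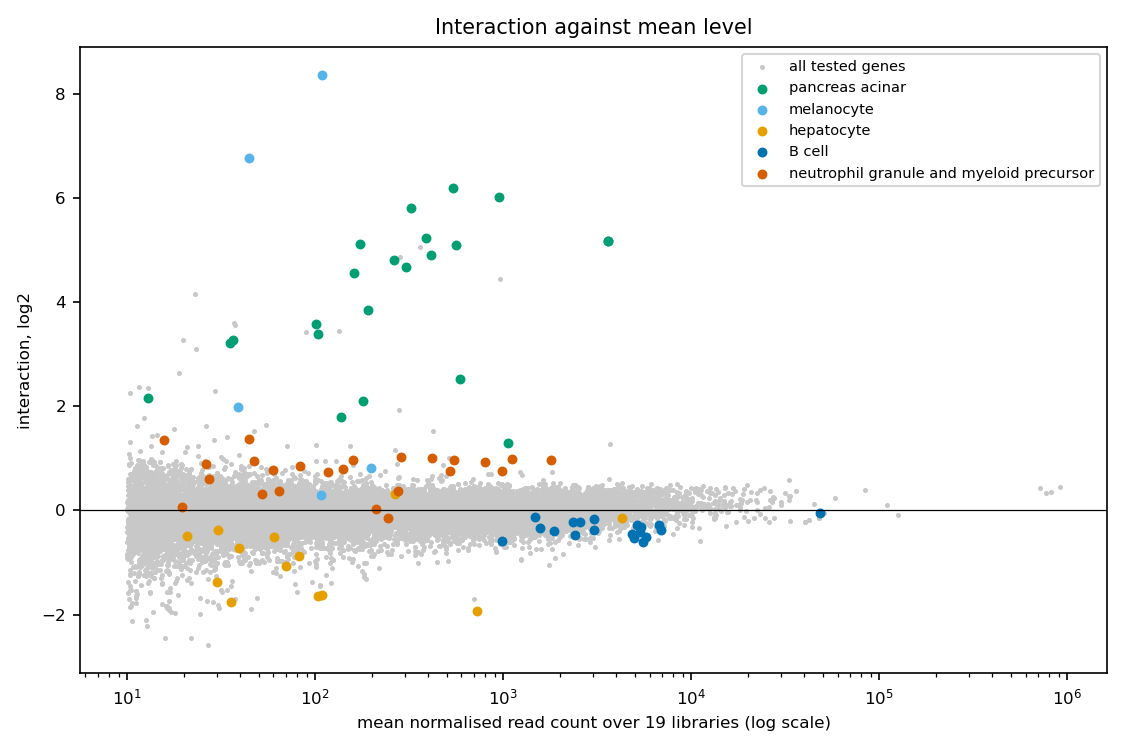
Interaction of genotype and PCB-153 (log2, y axis) against the mean normalised read count over 19 libraries (log scale, x axis), 1 point per tested gene, with members of 5 gene lists in colour. Pancreatic acinar genes lie highest together with 2 pigment cell genes, neutrophil genes lie between -0.15 and 1.38, and B cell genes lie below 0.

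Since no gene was called, the 24 genes described as leading are those with the smallest unadjusted p at a mean of at least 50, 12 in each direction. All of them had an adjusted p of 0.417 in the 19-library limma fit, so none of the interactions below passed the test there. The 12 with a positive interaction were S100a9, Camp, Elane, S100a8, Ngp, Chil3 and Lcn2, which are granule and secreted proteins of neutrophils and their precursors, Dct of pigment cells, Ap4b1, Cdc42ep4 and 2 loci annotated as microRNAs, Mir6236 and Mir6418. The 12 with a negative interaction were Slfn8, Sike1, Klhl14, Mtss1, Elk4, Adamts6, Shroom4, Xylt1, Samd8, Prkcb, Tcf4 and Rel. In 9 of the 12 positive genes the group lying farthest from the other 3 was the labelled knockout with DMSO, on the low side. In 10 of the 12 negative genes it was the labelled knockout with PCB-153, again on the low side. The same counts were not made over all genes. The 9 positive genes include S100a9, Camp, Elane, S100a8, Ngp, Chil3 and Lcn2, which share a cell type and are not separate observations. All 720 interaction values of these 24 genes under 30 alternative settings, which include leaving out each library in turn, had the sign of the 19-library fit. The genes were chosen by their small p in the same libraries, so a kept sign is no separate support. Of the 720 values, 16 were called.

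The bases before the start of S100a9, S100a8, Elane and Camp are shown because these 4 neutrophil genes lead the positive interactions and share a cell type. They were taken from RefSeq on GRCm38.p6, where all 4 genes were matched, and run up to the first annotated start of each gene in RefSeq or GENCODE M21. S100a9 lies on the minus strand (chr3:90695722-90695971, 250 bases), S100a8 on the plus strand (chr3:90668821-90668977, 157 bases), Elane on the plus strand (chr10:79886062-79886246, 185 bases) and Camp on the minus strand (chr9:109849618-109849706, 89 bases), each written 5′ to 3′ in the direction of its gene. Capitals mark matches on either strand to TTGCNNAA, a form of the C/EBP motif, or GAGGAA, a core of the PU.1 motif. Both factors are known regulators of granulocyte genes.
S100a9: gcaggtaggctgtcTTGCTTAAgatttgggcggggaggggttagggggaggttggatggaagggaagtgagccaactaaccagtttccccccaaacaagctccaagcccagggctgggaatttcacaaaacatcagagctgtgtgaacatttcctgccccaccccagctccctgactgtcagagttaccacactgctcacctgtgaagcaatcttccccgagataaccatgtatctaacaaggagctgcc
S100a8: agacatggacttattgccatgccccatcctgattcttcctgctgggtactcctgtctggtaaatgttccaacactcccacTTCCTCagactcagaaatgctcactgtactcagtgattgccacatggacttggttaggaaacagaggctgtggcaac
Elane: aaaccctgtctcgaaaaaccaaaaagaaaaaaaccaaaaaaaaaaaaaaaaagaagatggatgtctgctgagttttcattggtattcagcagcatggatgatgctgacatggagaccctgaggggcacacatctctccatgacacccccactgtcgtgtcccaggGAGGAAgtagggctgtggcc
Camp: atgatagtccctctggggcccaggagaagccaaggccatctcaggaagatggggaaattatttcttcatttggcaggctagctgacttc
S100a9 held 1 C/EBP match, at position -236 from the RefSeq start. S100a8 and Elane held 1 PU.1 match each, at positions -170 and -85 from their RefSeq starts, and Camp held neither. The bases shown for S100a8 and Elane end before the RefSeq start. Over 32851 RefSeq promoter windows cut to the same bases, 9.56% held the C/EBP letters at the length of S100a9, and 15.3% and 17.6% held the PU.1 letters at the lengths of S100a8 and Elane. The matches describe these letters only and say nothing about binding.

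Neutrophil genes had positive interactions in nearly all members. Of 24 tested genes of neutrophil granules and myeloid precursors, 23 had a positive interaction, against 49.1% of all tested genes. Their median was 0.83 on the log2 scale, against -0.01 over all genes. At an unadjusted p under 0.05, 18 of 24 were positive and 0 negative, against 3.83% and 6.02% of all genes. These shares are the background for every list count with 19 libraries below. None of the 24 neutrophil genes was called with 19 libraries. Without replicates 1 and 4 of the labelled knockout with PCB-153 the median was 0.99, 19 of 24 had a positive interaction at an unadjusted p under 0.05 (10.2% of all genes in that fit, 4.17% positive), and 5 were called in limma, which were all the genes called in that fit (0.0262% of 19058). In a whole-tissue measurement, fewer cells of a type and less RNA per cell cannot be told apart.

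S100A8 and S100A9 are partner calcium-binding proteins that fill the neutrophil cytosol. Wild-type libraries gave S100a9 values of 2459, 1659, 2157 and 2404 with DMSO and 1870.1, 1607, 1971, 1650.0 and 1628 with PCB-153. Labelled knockout libraries gave 1443, 1384, 1363, 1025 and 1205 with DMSO and 1331, 2411, 2121, 2002 and 2449 with PCB-153. Of the 5 labelled knockout PCB-153 libraries, 4 lay at 2002 or above and replicate 1 lay at 1331, inside the DMSO range of its genotype. The interaction of S100a9 was 0.96 (SE 0.21, 95% interval 0.54 to 1.39, adjusted p = 0.417), and 1.17 with adjusted p = 0.00731 in the 17-library fit. Leaving out replicate 1 alone gave 1.11 with adjusted p = 0.0216. For S100a8, wild-type values were 1210.3, 1009.5, 1183 and 941 with DMSO and 1110.2, 970.2, 1063, 1022 and 879.6 with PCB-153. The labelled knockout read 893, 885, 674, 550.0 and 677 with DMSO and 850.2, 1285, 1164, 1136 and 1321 with PCB-153. Here 2 of the 5 labelled knockout DMSO values lay above the lowest wild-type value, 879.6, and replicate 1 with PCB-153 was again the lowest of its group. The interaction of S100a8 was 0.75 (SE 0.19, adjusted p = 0.417), and 0.90 (adjusted p = 0.144) with 17 libraries. S100a8 (chr3:90668978-90670035) and S100a9 (chr3:90692632-90695721) are neighbours on chromosome 3.

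Camp encodes the cathelicidin antimicrobial peptide of secondary granules. The wild-type values of Camp were 499, 404, 556 and 549 with DMSO and 401, 363, 412, 403 and 365 with PCB-153. With the knockout label, values were 301, 349, 291, 250.1 and 301 with DMSO and 283, 680.3, 462, 395 and 638 with PCB-153. Labelled knockout libraries with DMSO ran from 250.1 to 349, and those with PCB-153 spread from 283 to 680.3. The interaction of Camp was 1.01 (SE 0.25, 95% interval 0.50 to 1.52, adjusted p = 0.417), with 1.34 and adjusted p = 0.00501 in the 17-library fit, and 1.19 with adjusted p = 0.0444 without replicate 1 alone. Ngp, neutrophilic granule protein, is another secondary granule gene. Ngp stood at 1311, 1028, 1436 and 1452 in wild type with DMSO and at 1148, 1021, 1268, 1029 and 976 in wild type with PCB-153. Corresponding labelled knockout values were 890.0, 989, 646, 556 and 804 with DMSO and 744, 1665, 1298, 1159 and 1793 with PCB-153. The highest labelled knockout DMSO value, 989, exceeded only 1 wild-type value, and replicates 2 and 5 with PCB-153 were the 2 highest of all 19 libraries. Its interaction was 1.00 (SE 0.27, adjusted p = 0.417), and 1.30 (adjusted p = 0.0338) with 17 libraries.

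Lcn2, which encodes the iron-siderophore binding protein lipocalin 2, gave a like pattern. Lcn2 read 310.0, 261, 402 and 358 in the wild-type DMSO libraries and 292, 249, 309, 265 and 250.5 in the wild-type PCB-153 libraries. Values in the labelled knockout were 217, 258, 171, 159 and 193 with DMSO and 175, 427, 359.7, 298 and 498 with PCB-153. The highest labelled knockout DMSO value, 258, exceeded 2 wild-type values, and replicates 2 and 5 with PCB-153 were the 2 highest of all libraries. The interaction of Lcn2 was 1.02 (SE 0.29, adjusted p = 0.417), and 1.38 with adjusted p = 0.0125 in the 17-library fit. Chil3, a chitinase-like protein of myeloid cells, had an interaction of 0.98 (SE 0.27, adjusted p = 0.417), and 1.35 with adjusted p = 0.00519 with 17 libraries. Chil3 has a close copy, Chil4, and how reads that match both were counted was not given in the sources used here. Elane, neutrophil elastase of primary granules, is made earlier in the lineage than the secondary granule genes. Wild-type libraries gave Elane values of 211, 153.5, 207 and 182 with DMSO and 146, 138, 188, 176 and 114 with PCB-153. Labelled knockout libraries gave 99, 139.8, 99.1, 98.7 and 143 with DMSO and 135, 217, 154, 179 and 236 with PCB-153. The labelled knockout DMSO group held 3 values from 98.7 to 99.1 and 2 at 139.8 and 143, and only these 2 overlapped wild type. The interaction of Elane was 0.97 (SE 0.24, 95% interval 0.47 to 1.47, adjusted p = 0.417), and 1.11 (adjusted p = 0.277) without replicates 1 and 4. In the 16-library fit, with 2 labelled knockout PCB-153 libraries left, 0 genes were called in limma, the lowest adjusted p being 0.0505, and the interactions of S100a9, Camp, Ngp and Lcn2 were 1.13, 1.27, 1.21 and 1.26.

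Averaged on the log2 scale, the 24 neutrophil genes stood at 7.42, 7.15, 7.58 and 7.34 in wild type with DMSO and at 7.20, 7.05, 7.35, 7.19 and 7.01 in wild type with PCB-153. In the labelled knockout they stood at 7.01, 6.99, 6.69, 6.69 and 6.89 with DMSO and at 6.86, 7.61, 7.37, 7.31 and 7.77 with PCB-153. Labelled knockout spleen with DMSO was lowest as a group, at 7.01 or below, while the lowest wild-type value was also 7.01 and replicate 1 of the labelled knockout with PCB-153 stood at 6.86. Retnlg, Cxcr2 and Olfm4, which are members of the list, had interactions of 0.03, -0.15 and 0.07; they were singled out after their values were seen.

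**Figure D2:**
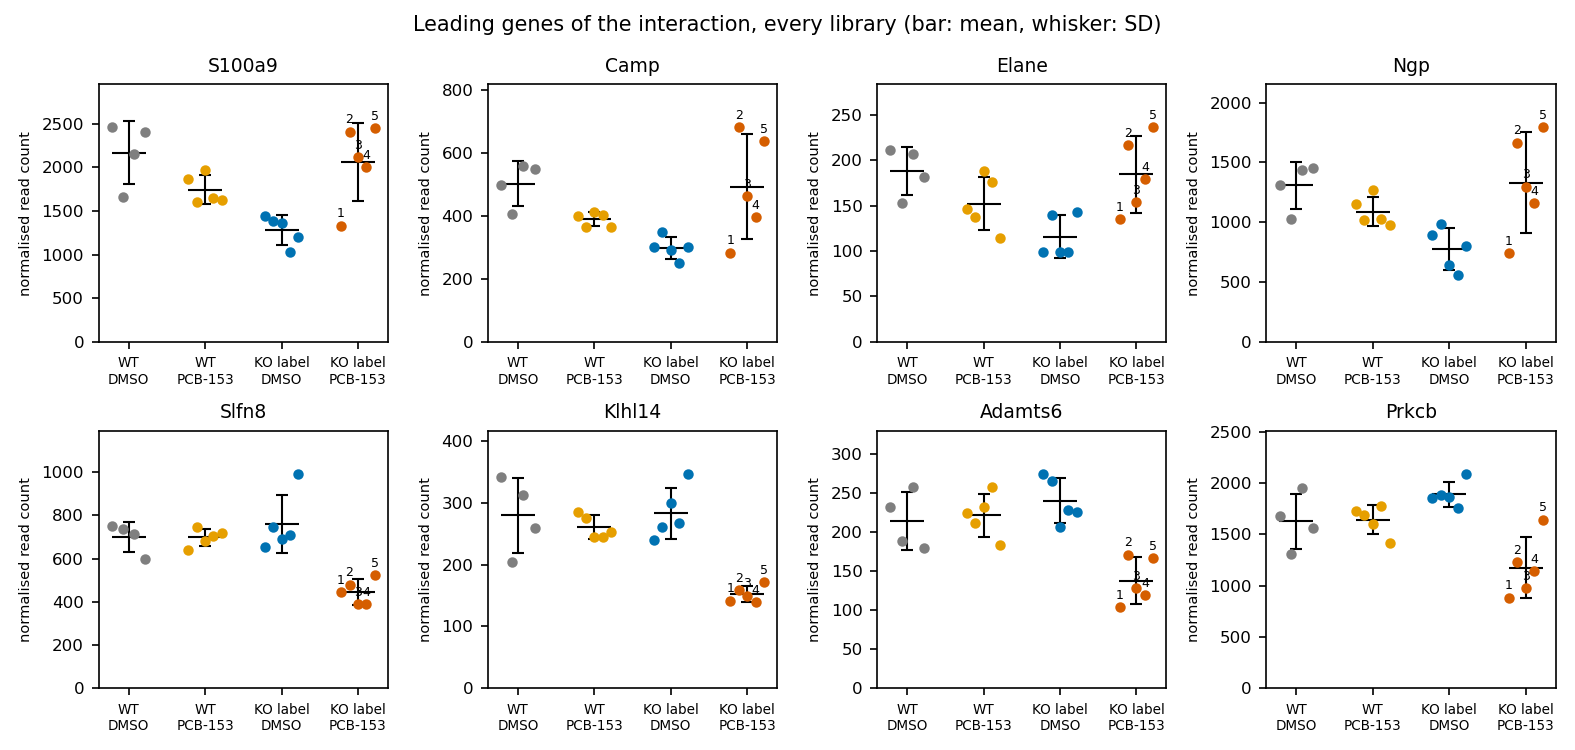
Normalised read counts (y axis, from 0) of 8 leading genes in each of the 19 libraries, by group, with the group mean (bar) and SD (whisker); digits give the replicate number in the labelled knockout with PCB-153. S100a9, Camp, Elane and Ngp are lowest in the labelled knockout with DMSO, and Slfn8, Klhl14 and Adamts6 lie below all other libraries in the labelled knockout with PCB-153.

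Outside the neutrophil and pigment cell genes, Ap4b1 and Cdc42ep4 had smaller interactions with smaller errors. Ap4b1 encodes a subunit of the adaptor complex AP-4, which sorts proteins at the trans-Golgi network. For Ap4b1, wild-type values were 701, 707, 658 and 663 with DMSO and 671, 668, 652, 625 and 661 with PCB-153. The labelled knockout read 733, 701, 670.4, 640.4 and 609.9 with DMSO and 851, 845, 769.7, 804 and 751 with PCB-153. All 5 labelled knockout PCB-153 libraries, from 751 to 851, lay above the other 14 libraries, whose highest value was 733, a separation that 33 of all 19058 genes showed (0.173%). The interaction was 0.32 (SE 0.09, 95% interval 0.13 to 0.51, adjusted p = 0.417), and 0.29 with 17 libraries. Cdc42ep4, an effector of the small GTPase CDC42, had group means of 1013 ± 121, 939.9 ± 80.1, 918 ± 57.7 and 1153 ± 116 and an interaction of 0.43 (SE 0.12, adjusted p = 0.417). Mir6236 and Mir6418 had interactions of 1.00 and 0.40. For these 2 loci the counts are reads over the annotated hairpin in a library made from messenger RNA, not a measure of a mature microRNA.

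In 3 of the 12 genes that led the negative interactions, Slfn8, Klhl14 and Adamts6, all 5 labelled knockout PCB-153 libraries lay below the other 14. Over all 19058 genes 26 showed this (0.136%). Slfn8 belongs to the Schlafen family, whose members are expressed in lymphoid cells. The wild-type values of Slfn8 were 751, 737, 715 and 599.9 with DMSO and 642, 746, 683, 704 and 718 with PCB-153. With the knockout label, values were 655, 744, 692, 711 and 992 with DMSO and 445, 479.5, 389, 389 and 523 with PCB-153. The 5 labelled knockout PCB-153 libraries, at 389 to 523, lay below the other 14, of which the lowest was 599.9. The interaction of Slfn8 was -0.76 (SE 0.15, 95% interval -1.08 to -0.44, adjusted p = 0.417), with -0.70 and -0.79 in the 17- and 16-library fits (adjusted p = 0.277 and 0.156). Slfn8 lies in a cluster of similar genes, so reads shared with its neighbours add uncertainty.

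Klhl14 encodes a kelch-like protein that adapts substrates to a ubiquitin ligase and is expressed in B cells. Klhl14 stood at 342, 205, 313 and 259.5 in wild type with DMSO and at 286, 276, 245, 244 and 253 in wild type with PCB-153. Corresponding labelled knockout values were 239.8, 261, 299, 268 and 347 with DMSO and 142, 158, 149.7, 139 and 172 with PCB-153. Again the labelled knockout PCB-153 values, 139 to 172, did not overlap any other group. The interaction was -0.81 (SE 0.18, 95% interval -1.17 to -0.44, adjusted p = 0.417), and -0.73 with 17 libraries. The antisense gene 4930426D05Rik overlaps Klhl14 and had an interaction of -0.86. Whether the counting used strand was not given in the sources used here, so reads of the 2 genes cannot be told apart. Adamts6, a secreted metalloprotease, was the third with complete separation. Adamts6 read 233, 189, 258 and 179.8 in the wild-type DMSO libraries and 224, 212, 233, 259 and 183 in the wild-type PCB-153 libraries. Values in the labelled knockout were 275, 266, 206, 229 and 226 with DMSO and 104, 172, 128, 119.9 and 167 with PCB-153. Its interaction was -0.87 (SE 0.20, adjusted p = 0.417), and -0.68 without replicates 1 and 4, which were the 2 lowest libraries. The lowest value outside the exposed labelled knockout, 179.8, lay above its highest, 172.

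Sike1 encodes a suppressor of the kinase IKBKE, which acts in antiviral signalling. Wild-type libraries gave Sike1 values of 938, 720.3, 974 and 771 with DMSO and 1022, 901, 888, 931 and 817 with PCB-153. Labelled knockout libraries gave 1033, 958, 969, 859 and 979.6 with DMSO and 620.2, 749.7, 655, 659 and 751 with PCB-153. The labelled knockout PCB-153 libraries overlapped only the wild-type DMSO group, at 720.3. The interaction of Sike1 was -0.59 (SE 0.13, 95% interval -0.86 to -0.33, adjusted p = 0.417), and -0.53 with 17 libraries. Mtss1, an actin-binding membrane protein, gave -0.51 (SE 0.12, adjusted p = 0.417), and Elk4, a ternary complex factor of the ETS family, gave -0.64 (SE 0.15, adjusted p = 0.417). For Elk4 the 17- and 16-library values were -0.74 and -0.83, and the part of pancreatic transcripts in its interaction was not tested. Shroom4, Xylt1 and Samd8, which act in cytoskeleton shape, proteoglycan chain synthesis and sphingolipid synthesis, had interactions of -0.80, -0.57 and -0.59 (adjusted p = 0.417 for each).

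Prkcb, Rel and Tcf4 are known for their part in B cells: protein kinase C beta acts below the B cell receptor, c-Rel is an NF-kB subunit and TCF4 is an E protein. For Prkcb, wild-type values were 1679.7, 1312, 1956 and 1562 with DMSO and 1724, 1686, 1601, 1781 and 1417 with PCB-153. The labelled knockout read 1858, 1883, 1863, 1758 and 2090.4 with DMSO and 882, 1229, 977, 1145 and 1644 with PCB-153. Replicate 5 with PCB-153, at 1644, lay within the wild-type range. The other 4 libraries, at 882 to 1229, lay below every library of the other groups, and the share of all genes showing this was not counted. The interaction of Prkcb was -0.74 (SE 0.18, 95% interval -1.12 to -0.35, adjusted p = 0.417). The wild-type values of Rel were 1648, 1145, 1765 and 1052 with DMSO and 1645, 1686, 1487, 1466 and 1253 with PCB-153. With the knockout label, values were 1583, 1518, 1591, 1437 and 1908 with DMSO and 862, 1052, 823, 1002 and 1332 with PCB-153. Replicate 5 of the exposed labelled knockout, at 1332, lay above 2 wild-type DMSO libraries and 1 wild-type PCB-153 library. Its interaction was -0.81 (SE 0.20, adjusted p = 0.417), and that of Tcf4 -0.60 (SE 0.15, adjusted p = 0.417), with -0.74 and -0.55 in the 17-library fit.

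B cell genes had negative interactions throughout, and their size depended on the 2 libraries with the most pancreatic transcripts. Of 19 tested B cell genes, 19 had a negative interaction with 19 libraries. At an unadjusted p under 0.05 there were 9, all negative (47.4%, against 6.02% of all genes in that direction), and 0 were called. The median was -0.37, and -0.14 in the 17-library fit, in which 4 of 19 were positive and 3 were negative at an unadjusted p under 0.05 (6.06% of all genes). Cd79a encodes the Ig-alpha chain of the B cell receptor complex. Cd79a stood at 6627, 5964, 6573 and 6687 in wild type with DMSO and at 5732, 5794, 6471, 5851 and 5719 in wild type with PCB-153. Corresponding labelled knockout values were 6175, 6146, 6374, 5975 and 7833 with DMSO and 3151, 5432, 4249, 3167 and 5374 with PCB-153. The labelled knockout PCB-153 libraries lay below all others, a separation that 26 of all 19058 genes showed (0.136%). Replicates 1 and 4 stood at 3151 and 3167, replicate 3 at 4249, and replicates 2 and 5 at 5432 and 5374. The interaction of Cd79a was -0.51 (SE 0.18, 95% interval -0.89 to -0.13, adjusted p = 0.442), and -0.25 (adjusted p = 0.512) with 17 libraries. Ms4a1, which encodes CD20, gave -0.61 (SE 0.17, adjusted p = 0.417) and -0.41, Ebf1, a B lineage transcription factor, gave -0.58 (SE 0.20, adjusted p = 0.43) and -0.36, and Cd55, a complement regulator abundant on B cells, gave -0.34 (SE 0.10, adjusted p = 0.422) and -0.31 with 19 and 17 libraries.

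The mean log2 level of the 19 B cell genes was 11.26, 11.98, 11.54, 11.28 and 11.95 in replicates 1 to 5 of the labelled knockout with PCB-153, against 11.83 to 12.27 in the other 14 libraries. Replicates 2 and 5 thus lay inside the range of the other groups and replicates 1, 3 and 4 below it. Replicates 1 and 4 carried most of the pancreatic transcripts, and replicate 3, with a summed level of 842 and 14 of the 23 genes at 0, did not. The part of these transcripts in the B cell values was not tested beyond leaving the libraries out.

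Genes of lymphocyte precursors and of germinal centre cells were of mixed sign. Of 10 tested precursor genes 7 had a negative and 3 a positive interaction, 3 were at an unadjusted p under 0.05, all negative, and the median was -0.20. It was -0.10 with 17 libraries, -0.09 without wild-type DMSO replicate 5 and -0.32 without wild-type PCB-153 replicate 1. In the 17-library fit 1 gene of each sign was at an unadjusted p under 0.05, and the positive one was Bst1, a surface ADP-ribosyl cyclase singled out after its values were seen, at 0.19 with 19 libraries and 0.41 with 17. Rag1, a subunit of the recombinase that cuts antigen receptor genes, was 1 of the 3. Rag1 read 101, 82.5, 80.1 and 66.3 in the wild-type DMSO libraries and 117, 90.4, 71.6, 78.2 and 47.7 in the wild-type PCB-153 libraries. Values in the labelled knockout were 69.3, 65.8, 91, 64.6 and 91.5 with DMSO and 24.7, 30.4, 17.9, 47.7 and 62.7 with PCB-153. Its labelled knockout PCB-153 values ran from 17.9 to 62.7, and the other groups reached into that range with 1 library, wild-type PCB-153 replicate 5 at 47.7. The interaction of Rag1 was -1.09 (SE 0.39, 95% interval -1.89 to -0.28, adjusted p = 0.438), with -1.12 and -1.58 in the 17- and 16-library fits. Vpreb3, a gene of B cell precursors, gave -0.64 (SE 0.29, adjusted p = 0.493) and -0.26, and the cytokine receptor gene Flt3 gave -0.37 (SE 0.18, adjusted p = 0.505) and -0.22. In the germinal centre list 7 of 9 genes were negative and 2 positive, and 2 were at an unadjusted p under 0.05, both negative, with a median of -0.28 (-0.13 with 17 libraries). Bcl6, the repressor that defines germinal centre cells, had an interaction of -0.48 (SE 0.14, adjusted p = 0.422), and -0.31 without replicates 1 and 4.

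T cell genes had a positive interaction in 6 of 21 members. Their median was -0.12 with 19 libraries and 0.08 with 17 libraries (-0.03 without labelled knockout PCB-153 replicate 1 alone). At an unadjusted p under 0.05 there was 1 gene (4.76%, against 9.85% of all genes). It was Themis, a signalling protein of T cells (-0.40, adjusted p = 0.487). Cd3e, of the T cell receptor complex, had an interaction of -0.17 (SE 0.19, 95% interval -0.57 to 0.23, adjusted p = 0.786), and 0.08 with 17 libraries. Plasma cell genes had a median of 0.08 (14 genes) with Slamf7 at -0.34, and natural killer and cytotoxic genes a median of 0.08 (17 genes), with the granzyme gene Gzma at 0.69 (SE 0.26, adjusted p = 0.442).

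**Figure D3:**
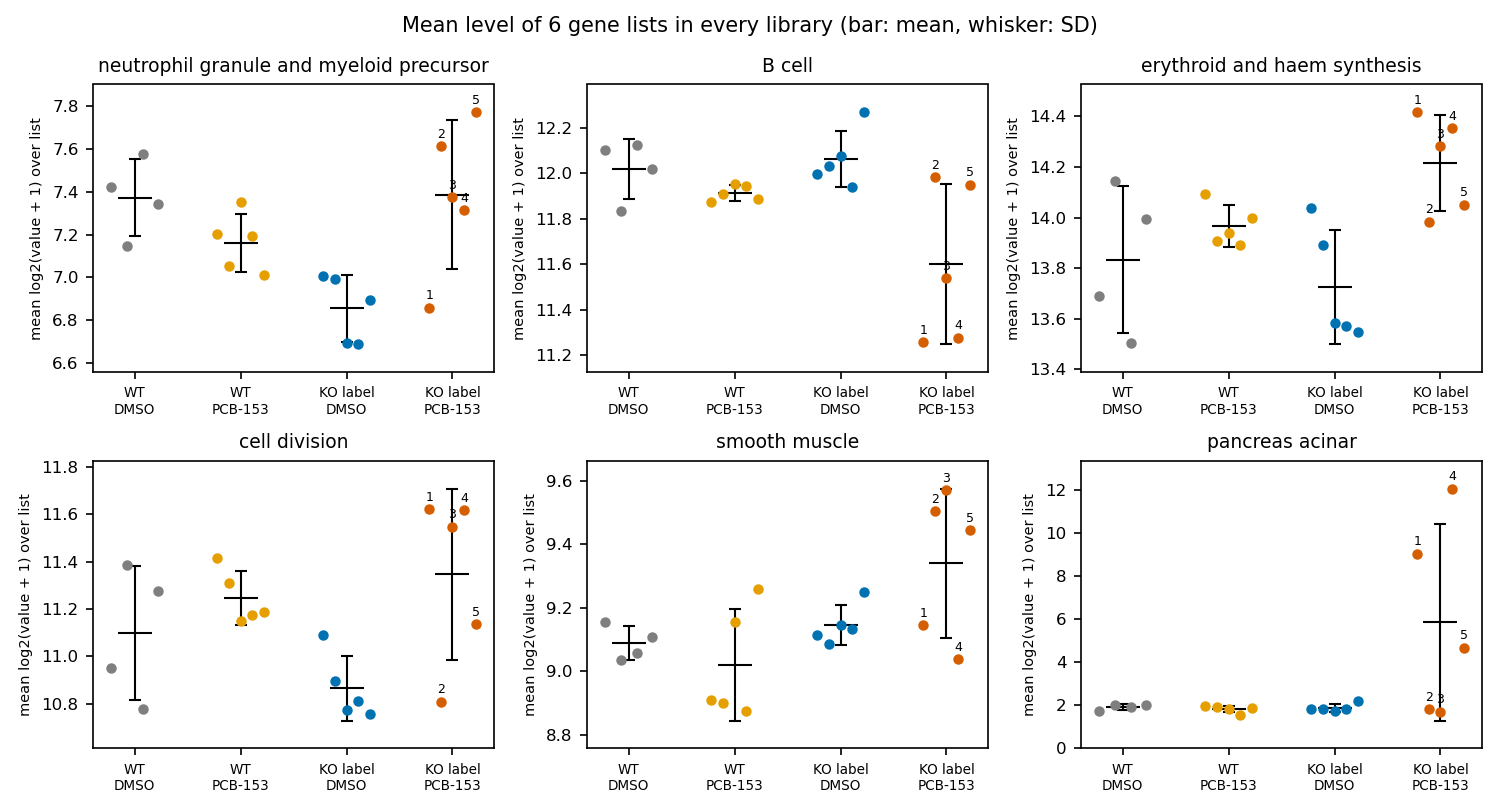
Mean log2(normalised read count + 1) over the members of 6 gene lists (y axis) in each library, by group, with the group mean (bar) and SD (whisker); digits give the replicate number in the labelled knockout with PCB-153. Replicates 1 and 4 of that group are the highest of the group for pancreatic genes and the lowest for B cell genes, and replicates 1, 3 and 4 are its highest for erythroid and cell division genes.

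Red cell genes had positive interactions in nearly all members, none of them called. Of 35 tested genes of the erythroid lineage and haem synthesis, 34 had a positive interaction. At an unadjusted p under 0.05 there were 8, all positive (22.9%, against 3.83% of all genes in that direction). The median was 0.39. In the 17-library fit 30 of 35 were positive, 2 were at that level, and the median was 0.24. Alas2 encodes the rate-limiting enzyme of haem synthesis in red cell precursors. Wild-type libraries gave Alas2 values of 29425, 35916, 24971 and 36615 with DMSO and 31945, 25152, 30258, 28953 and 33129 with PCB-153. Labelled knockout libraries gave 34935, 36119, 29685, 21906 and 23789 with DMSO and 36882, 55868, 35694, 36451 and 42249 with PCB-153. With PCB-153 the labelled knockout libraries, at 35694 to 55868, lay above all wild-type PCB-153 libraries and overlapped the highest values of both DMSO groups. The interaction of Alas2 was 0.58 (SE 0.22, 95% interval 0.13 to 1.04, adjusted p = 0.442), and 0.69 (adjusted p = 0.407) with 17 libraries. Ppox, Urod and Fech, which act later in the haem pathway, had interactions of 0.44, 0.43 and 0.42 (adjusted p = 0.452, 0.46 and 0.46), and 0.33, 0.35 and 0.38 without replicates 1 and 4.

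Cell cycle genes had positive interactions that were smaller in the 17-library fit. All 30 tested cell division genes and all 31 DNA replication genes had a positive interaction, with medians of 0.33 and 0.29. With 17 libraries 26 and 22 of them were positive, and the medians were 0.14 and 0.07. The replication median was 0.18 without wild-type DMSO replicate 3 and 0.45 without labelled knockout PCB-153 replicate 2. At an unadjusted p under 0.05 there were 6 division genes, all positive, and 0 replication genes, and in the 17-library fit 0 of either. Aurka encodes the mitotic kinase Aurora A. For Aurka, wild-type values were 1450.0, 1891, 1169 and 1971 with DMSO and 1704, 1569, 1575, 1483 and 1695 with PCB-153. The labelled knockout read 1300.4, 1213, 1126, 1163 and 1192 with DMSO and 1957, 1155, 2015, 2184 and 1569 with PCB-153. The labelled knockout with DMSO lay low, at 1126 to 1300, and its PCB-153 libraries were split, with replicates 1, 3 and 4 at 1957 to 2184, replicate 5 at 1569 and replicate 2 at 1155. The interaction of Aurka was 0.52 (SE 0.21, adjusted p = 0.459), and 0.35 with 17 libraries. Cdc20, an activator of the anaphase-promoting complex, Kif2c, a mitotic kinesin, and Tpx2, a spindle factor, had interactions of 0.42, 0.45 and 0.42 (adjusted p = 0.442, 0.455 and 0.486). Averaged over the 30 division genes, the labelled knockout PCB-153 libraries stood at 11.62, 10.81, 11.55, 11.62 and 11.13 on the log2 scale, and the erythroid list stood at 14.42, 13.98, 14.28, 14.35 and 14.05 in the same order, so replicates 1, 3 and 4 were the 3 highest of the group for both.

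Smooth muscle and collagen genes had mainly positive interactions, and larger ones in the 17-library fit. Of 12 tested smooth muscle genes, 10 had a positive interaction, with a median of 0.35. At an unadjusted p under 0.05 there were 4, all positive (33.3%, against 3.83% of all genes in that direction). With 17 libraries the median was 0.54 and 9 were at an unadjusted p under 0.05, all positive (against 4.17% of all genes in that fit and direction). Actg2 encodes the enteric form of smooth muscle actin. The wild-type values of Actg2 were 184, 165, 123 and 212 with DMSO and 141, 136, 189, 156 and 211 with PCB-153. With the knockout label, values were 183, 188, 134, 155 and 183 with DMSO and 232, 260.4, 342, 239.7 and 239.6 with PCB-153. All 5 labelled knockout PCB-153 libraries, at 232 to 342, lay above the other 14, of which the highest was 212. Over all 19058 genes 33 showed this separation (0.173%). The interaction of Actg2 was 0.66 (SE 0.22, 95% interval 0.21 to 1.12, adjusted p = 0.426), and 0.76 (adjusted p = 0.396) with 17 libraries. Acta2, alpha smooth muscle actin, gave 0.53 (SE 0.19, adjusted p = 0.438) and 0.70, Tagln, transgelin, gave 0.44 (SE 0.18, adjusted p = 0.46) and 0.62, and Myh11, smooth muscle myosin, gave 0.37 (SE 0.16, adjusted p = 0.487) and 0.55 with 19 and 17 libraries. Of 26 fibroblast and collagen genes, 23 were positive with a median of 0.20, and 1, the elastin gene Eln, was at an unadjusted p under 0.05, with 0.46 (SE 0.21, adjusted p = 0.493). In the 17-library fit 12 of 26 were, all positive (against 4.17% of all genes in that direction), with a median of 0.30. Col6a2, a collagen VI chain, gave 0.40 (SE 0.20, adjusted p = 0.509). Genes of the splenic reticular stroma did not share this: 9 of 15 were negative, with a median of -0.10, and 0.01 with 17 libraries.

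Pancreatic and pigment cell transcripts had the largest interactions. Of 22 tested pancreatic acinar genes, 22 had a positive interaction, with a median of 4.63, and 11 were at an unadjusted p under 0.05. Members at or near 0 elsewhere reached the mean of 10 through these libraries alone, so the counts only describe them. Try4 encodes a pancreatic trypsin. Try4 stood at 3.3, 1.04, 0.756 and 2.25 in wild type with DMSO and at 0, 1.86, 0, 2.41 and 2.01 in wild type with PCB-153. Corresponding labelled knockout values were 1.1, 0, 0, 0.923 and 0 with DMSO and 1149, 1.22, 1.12, 9110.2 and 37.3 with PCB-153. Replicates 1 and 4 of the labelled knockout with PCB-153, and at a lower level replicate 5, carried the gene, and all other libraries were at 3.3 or below. The interaction of Try4 was 6.20 (SE 2.26, 95% interval 1.49 to 10.90, adjusted p = 0.442), and it was 2.53 and 1.15 in the 17- and 16-library fits. Cpb1 (carboxypeptidase B1), Ctrb1 (chymotrypsinogen B) and Try5 had interactions of 5.24, 6.03 and 5.81. Over the list the median was 2.95 without replicate 4 alone, 1.10 with 17 libraries and -0.09 with 16. Trypsin and amylase genes occur in near-identical copies, so their separate values are uncertain.

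Pigment cell genes marked other libraries. Tyrp1 and Dct encode enzymes of melanin synthesis. Tyrp1 read 126, 0, 209 and 88.8 in the wild-type DMSO libraries and 0, 0, 0, 0 and 0 in the wild-type PCB-153 libraries. Values in the labelled knockout were 0, 0, 0, 0 and 95.2 with DMSO and 0, 57.2, 273, 0 and 0 with PCB-153. Tyrp1 was at 0 in all 5 wild-type PCB-153 libraries and in 8 of the other 14, and between 57.2 and 273 in 3 wild-type DMSO libraries, 1 labelled knockout DMSO library and 2 labelled knockout PCB-153 libraries. The interaction of Tyrp1 was 6.77 (SE 2.37, 95% interval 1.85 to 11.70, adjusted p = 0.438), and 8.63 with 17 libraries. Wild-type libraries gave Dct values of 335, 4.18, 519 and 226 with DMSO and 2.23, 0.932, 0.907, 0 and 0 with PCB-153. Labelled knockout libraries gave 0, 1.83, 1.01, 0 and 240.3 with DMSO and 3.22, 141, 584, 1.06 and 2.54 with PCB-153. Dct was high in the same 6 libraries, and its interaction was 8.36 (SE 2.30, 95% interval 3.58 to 13.14, adjusted p = 0.417). Pmel, a melanosome protein, gave 0.82 (SE 0.47, adjusted p = 0.564), and Sox10, a factor of neural crest cells, gave 1.77 (SE 0.62, adjusted p = 0.438). Melanocyte genes likewise passed the filter through a few libraries. Of its 5 tested genes 5 were positive, and 2 had an unadjusted p under 0.05; the median was 2.0 (2.99 with 17 libraries and 1.30 without labelled knockout PCB-153 replicate 3).

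Hepatocyte genes had a negative median, -0.87 over 13 genes, 0 of them had an unadjusted p under 0.05, and the value rested on single libraries. It was 0.14 without labelled knockout DMSO replicate 4, -0.13 without wild-type PCB-153 replicate 1 and -1.66 without wild-type DMSO replicate 1, so the list had no stable direction. The summed level of the list was 21349 in replicate 4 of the labelled knockout with DMSO and 9343 in replicate 1 of wild type with PCB-153, against 3623 to 6240 elsewhere. Serpina1a and Serpina1c, serum protease inhibitors made by liver, gave -1.65 and -1.62 (adjusted p = 0.679 and 0.647).

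**Figure D4:**
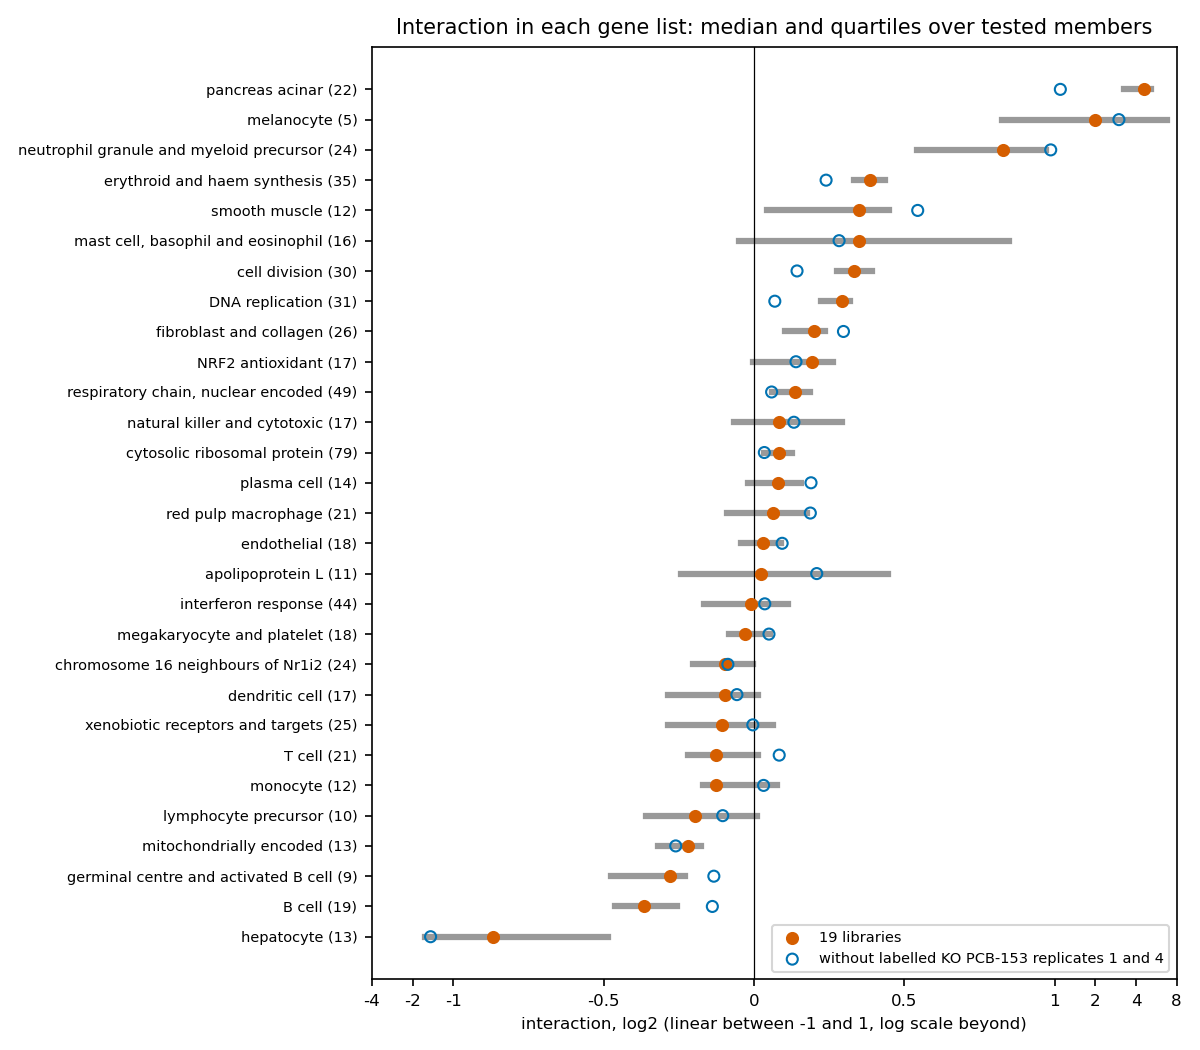
Median interaction (log2, x axis, linear from -1 to 1 and log scale beyond) of 29 gene lists, with the quartiles over tested members (grey bar, 19 libraries); filled points are 19 libraries, open points leave out replicates 1 and 4 of the labelled knockout with PCB-153, and numbers in brackets are tested members. Pancreatic genes move from 4.63 to 1.10 and T cell genes from -0.12 to 0.08 between the 2 fits, while neutrophil genes stay at 0.83 and 0.99.

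Receptors and target genes of the response to foreign chemicals had no called interaction in spleen. Of 38 listed genes of xenobiotic receptors and metabolism 25 reached the mean of 10, with a median of -0.11, 1 gene at an unadjusted p under 0.05 in each direction and 0 called. The median was -0.004 with 17 libraries and 0.01 without labelled knockout DMSO replicate 4. Ahr, the aryl hydrocarbon receptor, had group means of 314 ± 56.1, 349 ± 14.8, 382 ± 26 and 347 ± 43.4 and an interaction of -0.31 (SE 0.14, 95% interval -0.61 to -0.02, adjusted p = 0.494). Its targets Cyp1a1, Cyp1b1 and Tiparp had interactions of -0.56, -0.14 and -0.29 (SE 0.50, 0.17 and 0.18). Cyp3a11, the classic SXR target in liver, was at 0 to 12.1 in 15 libraries and at 19.7, 74.8, 198 and 349 in the rest, and the last 2 are the libraries with the highest summed hepatocyte genes. Its interaction was -1.76 with an interval of -6.07 to 2.55, and the part of liver transcripts in it was not tested. Cyp2b10 and Cyp3a13 did not reach the mean of 10 and were not tested. Abcb1a, a drug efflux pump, gave -0.28 (SE 0.17, adjusted p = 0.593), and Aldh1a1, a retinal dehydrogenase, gave 0.34 (SE 0.15, adjusted p = 0.49).

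Antioxidant genes under NRF2 held 4 of 17 at an unadjusted p under 0.05, all positive (23.5%, against 3.83% of all genes in that direction). Their median was 0.19. With 17 libraries 2 were at that level, with a median of 0.14. G6pdx, the first enzyme of the pentose phosphate pathway, was 1 of the 4. For G6pdx, wild-type values were 1244, 1256, 1173 and 1252 with DMSO and 1183, 1241, 1148, 1183 and 1249 with PCB-153. The labelled knockout read 1090.3, 1144, 1098, 1180.3 and 1023 with DMSO and 1311, 1293, 1288, 1355 and 1199.9 with PCB-153. The labelled knockout DMSO libraries, at 1023 to 1180, lay lowest and touched the wild-type ranges. Of the 5 PCB-153 libraries of that genotype, 4 lay above every other library. The share of all genes with such a partial separation was not counted. The interaction of G6pdx was 0.26 (SE 0.08, 95% interval 0.09 to 0.42, adjusted p = 0.422), and 0.22 with 17 libraries. Txnrd1, thioredoxin reductase, Slc7a11, the cystine transporter, and Taldo1, transaldolase, gave 0.26, 0.28 and 0.24 (adjusted p = 0.442, 0.482 and 0.465), and Nqo1, a quinone reductase, gave 0.35 (0.559).

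Genes beside Nr1i2 on chromosome 16 were described because a knockout allele is inherited together with flanking chromosome. Of 24 tested neighbours, 1 had a positive and 3 a negative interaction at an unadjusted p under 0.05 (16.7%, against 9.85% of all genes). The median of the neighbours was -0.10, and between -0.14 and -0.05 with single libraries left out. Bbx, Zbtb20 and Gsk3b, of which Zbtb20 is a transcriptional repressor and Gsk3b a serine kinase, gave -0.59 (SE 0.17, adjusted p = 0.417), -0.58 (SE 0.18, adjusted p = 0.422) and -0.38 (SE 0.14, adjusted p = 0.439). Ift57, of the intraflagellar transport machinery, was the positive one. The wild-type values of Ift57 were 139, 171, 117 and 154 with DMSO and 151, 164, 139, 137 and 156 with PCB-153. With the knockout label, values were 378, 309, 333, 286 and 282 with DMSO and 447, 391, 450.2, 399.9 and 401 with PCB-153. The labelled knockout PCB-153 libraries lay above all others, a separation that 33 of all 19058 genes showed (0.173%). Ift57 is a gene of the receptor's own chromosome, and its interaction was 0.35 (SE 0.15, 95% interval 0.04 to 0.66, adjusted p = 0.465).

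All 13 mitochondrially encoded genes had a negative interaction, with a median of -0.22 and 3 at an unadjusted p under 0.05: mt-Atp8 (-0.59), mt-Nd4l (-0.32) and mt-Nd2 (-0.33). All 13 lay in the quintile of genes with the lowest GC content. Of all genes in that quintile 70.4% were negative, with a median of -0.13, and 13.3% were negative at that level. The part of GC content in the mitochondrial values was not tested. mt-Atp8 stood at 9824, 9232, 9560.4 and 5296 in wild type with DMSO and at 14308, 10356, 10010.2, 10998 and 11281 in wild type with PCB-153. Corresponding labelled knockout values were 12191, 12476, 11431, 13043 and 13137 with DMSO and 14744, 9472, 10882, 12435 and 9792 with PCB-153. Wild-type DMSO replicate 5 was the lowest library, at 5296, and the other 3 of that group, at 9232 to 9824, touched only the lowest labelled knockout PCB-153 values. Without wild-type DMSO replicate 5, the library with the largest GC difference described below, the median of the 13 genes was -0.09. Of 49 nuclear respiratory chain genes 47 were positive, with a median of 0.14 and 6 at an unadjusted p under 0.05, and in the 17-library fit 34 were positive, with a median of 0.06 and 1 at that level. Their median was 0.08 and 0.22 without wild-type DMSO replicates 3 and 4 in turn. Of 79 cytosolic ribosomal protein genes 63 were positive with a median of 0.08, which was -0.05 after quantile normalisation, so their direction depended on the scaling. With 17 libraries the median was 0.03 and 53 were positive.

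Among the other lists, interferon response genes had a median of -0.01 (44 genes). At an unadjusted p under 0.05 there were 2, both negative (4.55%, against 6.02% of all genes in that direction). Trim30a, an interferon-induced TRIM protein, stood at -0.44 (SE 0.16, adjusted p = 0.438). Dendritic cell genes had a median of -0.10 (17 genes, 3 negative at that level; -0.06 with 17 libraries), with Siglech, a marker of plasmacytoid dendritic cells, at -0.79 (SE 0.26, adjusted p = 0.422). Red pulp macrophage genes had a median of 0.06 (21 genes; 0.19 with 17 libraries), with Cd5l, a macrophage-secreted inhibitor of cell death, at 0.44 (SE 0.20, adjusted p = 0.499). Monocyte genes had a median of -0.13 (12 genes; 0.03 with 17 libraries), with F13a1, coagulation factor XIII, at 0.38 (SE 0.17, adjusted p = 0.498). Mast cell, basophil and eosinophil genes had a median of 0.35 (16 genes, 2 positive at that level; 0.18 to 0.53 with single libraries left out), with Hdc, histidine decarboxylase, at 0.78 (SE 0.23, adjusted p = 0.417) and Prss34, a basophil protease, at 0.98 (SE 0.37, adjusted p = 0.442). Endothelial and megakaryocyte genes had medians of 0.03 and -0.03 (18 genes each), with 0 at that level. Among 11 apolipoprotein L genes Apol11b gave 1.28 (SE 0.49, adjusted p = 0.442) and Apol7c -0.52 (SE 0.18, adjusted p = 0.438), with a median of 0.02. The other 15 lists with tested members, among them adipocyte, cholesterol synthesis, clock, heat shock and inflammatory cytokine genes, had medians from -0.53 to 0.36. Of their 209 genes 8 were positive and 6 negative at an unadjusted p under 0.05, against 3.83% and 6.02% of all genes, and 0 were called. With 1 library left out at a time, the medians of 9 lists turned in sign: those of plasma cell, natural killer, red pulp macrophage, megakaryocyte, endothelial, interferon, apolipoprotein L, xenobiotic and hepatocyte genes. Those of 8 lists stayed within 1.5 times: neutrophil, B cell, germinal centre, erythroid, cell division, smooth muscle, fibroblast and NRF2 genes.

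Among the 32 genes that DESeq2 called there were 20 with a positive interaction (0.122% of 16385) and 12 with a negative one (0.0732%), and 17 of the 32 had a fitted size above 5 on the log2 scale. The pancreatic list held 10 of them, the melanocyte list 1, and 18 were in no list. Those in no list included Amy2a3, Amy2a4, Amy2b, Try10 and Reg2, relatives of listed pancreatic genes, with fitted sizes of 10.45 to 30.0. The neutrophil list held 3: S100a9 (1.00, adjusted p = 0.00284), Camp (1.09, adjusted p = 0.0128) and Chil3 (1.07, adjusted p = 0.0495). The negative calls included Slfn8 (-0.76, adjusted p = 0.00358), Sike1 (-0.58, 0.0121), Klhl14 (-0.79, 0.018), Mtss1 (-0.50, 0.0228), Elk4 (-0.64, 0.0235) and Adamts6 (-0.84, 0.0361). Without replicates 1 and 4 of the labelled knockout with PCB-153, DESeq2 called 18 of 23592 genes (0.0763%), 13 positive (0.0551%) and 5 negative (0.0212%), and 9 of them were in the neutrophil list. Without replicate 5 as well it called 38 of 24156 (0.157%), 15 positive (0.0621%) and 23 negative (0.0952%). Of the 32 genes, 5 were called in all 3 fits: S100a9, Camp, Chil3, Elk4 and Tyrp1. For Tyrp1, at 0 in every wild-type PCB-153 library, the fitted sizes were 24.77, 25.49 and 26.06 in these fits.

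Across genes, the interaction also varied with transcript length and base composition, which was computed for 18935 of the 19058 genes (99.4%). In the quintile of genes with the longest transcripts, 4720 bases or more, the median interaction was -0.10, 67.8% were negative and 14.2% had a negative interaction at an unadjusted p under 0.05, against 3.59% in the shortest quintile. In the quintile with the lowest GC content the median was -0.13 and in the quintile with the highest it was 0.05. Spearman's correlation over genes, which are not independent, was -0.17 with length and 0.25 with GC content, and -0.12 and 0.38 with 17 libraries. The 12 leading negative genes had a median length of 7088 bases and a median GC content of 45.7%, the 12 leading positive genes 1103 bases and 52.2%, and all genes 2773 bases and 49.6%.

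By library, the median log2 deviation of the highest GC quintile minus that of the lowest was 0.35 in wild-type DMSO replicate 5 and 0.24 in labelled knockout PCB-153 replicate 2, and between -0.18 and 0.10 in the other 17. Without the first of these libraries the correlation with GC content was 0.13, and without the second 0.15. For length, the longest quintile minus the shortest was 0.02 to 0.10 in the 5 labelled knockout DMSO libraries and spread from -0.21 to 0.17 in wild type with DMSO. The part of length and GC content in the interaction of any gene was not tested.

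**Figure D5:**
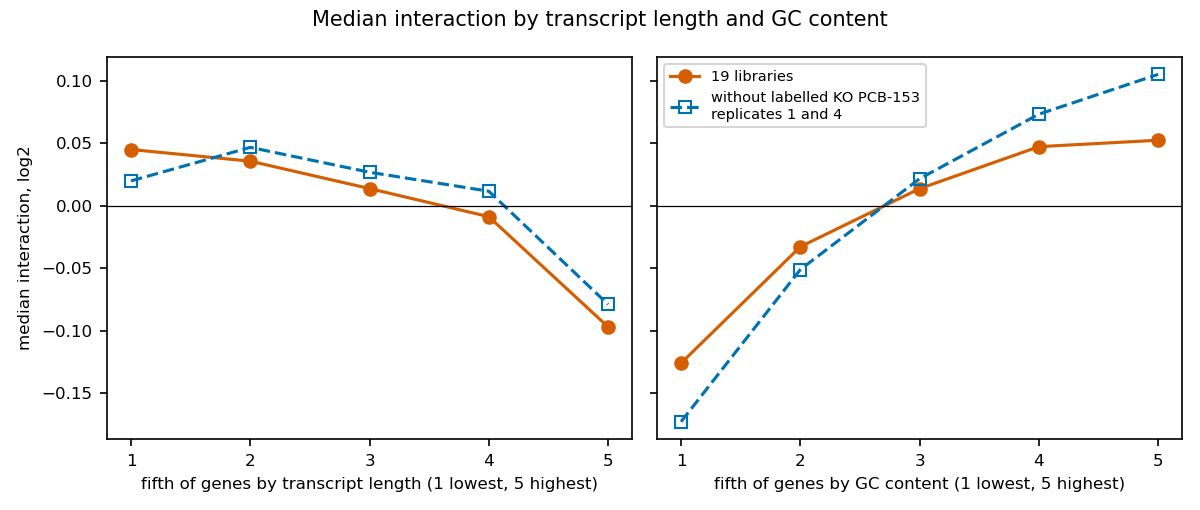
Median interaction (log2, y axis) in quintiles of tested genes by transcript length (left) and GC content (right), with 19 libraries (filled circles) and without replicates 1 and 4 of the labelled knockout with PCB-153 (open squares). The longest quintile lies at -0.10 with 19 libraries, and the medians along the quintiles of GC content go from -0.13 to 0.05.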

How the data were processed

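The spleen RNA-seq table was used, with 19 libraries in 4 groups taken from the labels. Per the submitters' processing notes, FastQC, STAR 2.6.0, featureCounts and DESeq2 (version given as 3.8) were used on mm10. The deposited values are a normalised read count signal per gene, made by the authors by dividing counts by size factors. The kit is named in 2 versions, and the strand setting was not given in the sources used here. Of the authors' own comparison tables only a mean count was read, to restore gene names. Whole reads were recovered from the steps between low values, and 100.0% of values in each library lay within 0.05 of a whole read. Libraries of one group differed by more than sampling noise (lowest chi-square per degree of freedom 5.48).

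Values were analysed as log2(value + 1) in R 4.3.3 with limma 3.58.1 (1 mean per group, interaction contrast, Benjamini-Hochberg adjustment over all 19058 genes), after a filter at a mean of 10. Recovered reads were tested with edgeR 4.0.16 (quasi-likelihood) and DESeq2 1.42.0 as alternatives. The limma interaction fit was tested on simulated reads, and the edgeR and DESeq2 fits were not. Named genes were Nr1i2 and tissue markers, the 12 with the smallest p in each direction at a mean of 50 or more (predicted genes left out), up to 4 members of each list by smallest p, and receptor and target genes. The members and lists were chosen with earlier results of these data known. Lists are described by counts and medians, with no test. Other alternatives were other pseudocounts, filters and quantile normalisation, a replicate block, and each library left out in turn. Replicate numbers were not used to pair libraries: over 27 same-numbered pairs the correlation of deviations ran from -0.23 to 0.27, with 9 above 0.1. Some alternatives, with 2 or 3 libraries left out together, were chosen after seeing the data. Transcript length and GC content came from GENCODE M21 (GRCm38), and promoter sequence from RefSeq GRCm38.p6.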

Additional observations from a re-analysis of the deposited data

Results flagged for a closer look

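Of 148 groups of values examined, 16 held a highest or lowest library that stood apart from the others of its group, and chance alone gives about 1 in 20. Replicate 5 of the labelled knockout with DMSO was such a library 6 times: it was highest for Dct (240.3 normalised counts), Slfn8 (992), Cd79a (7833), Cd3e (732), the mean log2 level of pancreatic genes (2.18) and that of melanocyte genes (7.26). Replicate 3 of the labelled knockout with DMSO was highest for mitochondrially encoded genes (mean log2 level 14.31), and replicate 3 with PCB-153 for Dct (584). In wild type with PCB-153, replicate 5 was highest for Cdc42ep4 (1079) and lowest for Shroom4 (65.8), replicate 4 highest for Xylt1 (558), replicate 1 for Nr1i2 (2.23) and replicate 3 for Cd79a (6471). In wild type with DMSO, replicate 4 was highest for Mtss1 (1726) and Nr1i2 (2.27), and replicate 3 was lowest for Cd79a (5964). Nr1i2 had reads in no other wild-type library than the flagged ones. Dct is in the melanocyte list, so the 16 are not independent. Their number therefore cannot be set against 1 in 20.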

How the results depend on the processing

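The number of genes called was 0 in limma and edgeR with all 19 libraries and with the pseudocount, filter and normalisation changed. Leaving out each library in turn gave 0 to 2 calls, the 2 without labelled knockout PCB-153 replicate 1. DESeq2 called 32, limma without replicates 1 and 4 called 5, and DESeq2 called 18 without these 2 and 38 without replicate 5 as well. A replicate block called 0 genes, and 1722 had an unadjusted p under 0.05; the numbers do not pair the libraries, since 5 of 19 libraries correlated best with their own number. Of 2634 values of 88 named genes, 16 in 4 genes changed sign. Nr1i2 was -0.052 with a pseudocount of 5, -0.021 after quantile normalisation and -0.022 with the block, and -0.42 to 0.34 leaving out single libraries. Cd3e was 0.084 without 2 and 0.10 without 3 libraries, Spic ran from -0.033 to 0.13 leaving out single libraries, and Cyp1b1 was 0.007 without 3. Of 870 list medians under alternatives, 846 moved by less than the SD of the list's mean log2 level between replicates, a wide margin for uneven lists: by 1.5 times as the limit, single left-out libraries moved 21 of 29 medians and turned 9 in sign. The hepatocyte median ran from -1.66 to 0.14, the mitochondrially encoded one from -0.30 to -0.09, and the nuclear respiratory chain one was 0.06 without 2 libraries. Without 2 libraries the medians were -0.14 for B cell, -0.13 for germinal centre, 0.084 for T cell, 0.032 for monocyte, 0.54 for smooth muscle, 1.10 for pancreatic and 0.21 for apolipoprotein L genes. Without 3 libraries they were 0.091 for T cell, -0.0052 for monocyte, 0.36 for fibroblast, 0.54 for smooth muscle, -0.088 for pancreatic and 4.19 for melanocyte genes. With edgeR, edgeR without a filter and DESeq2 the pancreatic median was 10.13, 10.15 and 10.64, and the hepatocyte median -4.57, -4.55 and -4.63. At a mean of 50 or more the medians were 0.78 for mast cell, basophil and eosinophil and 0.27 for apolipoprotein L genes. After quantile normalisation they were -0.054 for ribosomal, -0.38 for mitochondrially encoded and 0.13 for NRF2 genes. The cause was not tested. With a median 95% half-width of 1.29-fold before adjustment for the number of genes, smaller interactions could not be resolved for a typical gene. Larger ones could also go uncalled after adjustment: S100a9, at 0.96 (SE 0.21), had an adjusted p of 0.417 in the 19-library limma fit. The level of Nr1i2 was the reverse of what the genotype labels name, and the reason was not tested.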
